A study of Mus musculus with 10 samples.

Results

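Fam20a, Fam20b, Fam20c, Pkdcc and Fjx1 are 5 mouse genes of the secretory pathway kinase family, chosen by gene symbol from the 56748 genes of the count table. Each symbol matched 1 gene, and all 5 were among the 14270 genes with enough counts to be tested. They were examined in primary adipocytes in which Fam20c had been targeted for deletion, to ask how much Fam20c transcript was left and whether the transcripts of its relatives differed.

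Secretory pathway kinases work inside the endoplasmic reticulum and the Golgi apparatus, or outside the cell, and so act on proteins and sugars that are on their way out of the cell. FAM20C is the kinase that phosphorylates serines in S-x-E motifs of a large part of the secreted phosphoproteome, and is known as the Golgi casein kinase and for its role in bone mineralization. FAM20A is a pseudokinase that binds FAM20C and raises its activity, and is known from enamel formation. FAM20B is not a protein kinase but phosphorylates a xylose in the linker that joins glycosaminoglycan chains to proteoglycans. PKDCC, also called VLK, is a secreted tyrosine kinase of extracellular proteins, and FJX1 is the mammalian relative of Four-jointed, the fly Golgi kinase that phosphorylates cadherin domains of Fat and Dachsous.

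RNA-seq libraries were made from 5 control and 5 Ad-Fam20c–KO (KO) samples of primary adipocytes. The methods describe stromal vascular cells of inguinal fat from male mice aged 6 to 8 weeks, differentiated for 6 to 8 days with IBMX, dexamethasone, insulin and rosiglitazone. The control genotype was Fam20c-flox and the KO genotype Fam20c-flox/Adipoq-Cre, so both groups carried the floxed allele, and both received the adipogenic mixture. The methods state that the floxed line had been crossed back to C57BL/6J for 5 or more generations. Cre was driven by the adiponectin gene's regulatory region, which is active in adipocytes, so cells that do not express adiponectin were not its target. Which exons the loxP sites flank is not given in the sources used here, and each count covers the entire gene, which can include reads from a transcript that lacks the deleted part. Nothing states that the samples of a group came from separate animals, so the p-values measure the spread between these samples, which may be technical.

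The libraries held 18949106 to 26237825 counts in control and 19883101 to 23291792 in KO, and levels are given as CPM, a count scaled to the size of its library, here with TMM factors. By the quasi-likelihood test of edgeR, at a Benjamini-Hochberg adjusted limit of 0.05, 309 genes (2.17% of those tested) differed between the groups. Of these, 265 genes were lower in KO, 1.86% of the genes tested, and 44, 0.308%, were higher. The defining adipocyte markers were present in both groups (0 of 12 called, 1 higher without control library 4, no marker at 0). Their summed levels were 30428 to 31255 CPM in control and 31773 to 33792 CPM in KO, with all KO libraries above all control libraries. Fabp4 (20805 CPM in control, 22552 CPM in KO, adjusted p = 0.3865 by edgeR) had the highest level of the list and weighs most in these sums. Of the 12 markers, 10 had a positive log2 fold change and 2 a negative one. Control library 4 stood apart from the other control libraries in 3 of the levels described here: that of Pkdcc and the sums of 2 gene lists. Those 3 are also given without it.

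The 3 Fam20 genes are paralogs, and a 60-base coding stretch at an exon junction shows how near their reads come to each other. The stretch was taken from GENCODE M21 transcripts on GRCm38 because it is the window with the most identical bases in an alignment of the 3 coding sequences. It is printed 5′ to 3′ on the coding strand, with the 45 bases that are the same in all 3 genes in capitals.
Fam20c: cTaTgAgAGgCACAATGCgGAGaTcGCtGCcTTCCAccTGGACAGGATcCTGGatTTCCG
Fam20a: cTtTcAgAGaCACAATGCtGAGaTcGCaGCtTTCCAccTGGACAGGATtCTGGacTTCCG
Fam20b: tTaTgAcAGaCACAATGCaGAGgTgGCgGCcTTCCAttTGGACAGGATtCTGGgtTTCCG
With its intron, the Fam20c stretch spans chr5:138793235-138795008 on the plus strand (exons 4 and 5 of 10). That of Fam20a spans chr11:109677872-109678400 on the minus strand (exons 5 and 6 of 11), and that of Fam20b chr1:156698822-156702443 on the minus strand (exons 4 and 5 of 9).

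Over their aligned coding sequences, Fam20c shared 58.7% of bases with Fam20a and 54.5% with Fam20b, and Fam20a shared 47.5% with Fam20b. The longest run of identical bases was 17 between Fam20c and Fam20a, 15 between Fam20a and Fam20b and 13 between Fam20c and Fam20b. Of the 50-base windows along the annotated transcripts of each gene, 0 occurred in a transcript of another of the 5 kinases, so a read that matches such a window without error belongs to 1 of them. Windows shared with any other gene lay in Fam20b alone, where 351 of 8901 windows (3.94%) also fell in Gm19918, a provisional gene model on the opposite strand. Whether the counting used strand is not stated, and reads there cannot be assigned with certainty.

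Fam20c counts over the entire gene were lower in KO, at 71.1% of the control level (95% interval 61.8% to 81.8%). These counts can include transcript that lacks the deleted part, so how much intact transcript was left is not known. Fam20c (chromosome 5, 138754514 to 138810077) gave 8.86, 10.3, 11.9, 9.09 and 11.2 CPM in the control libraries, on 169 to 274 counts each. The KO libraries gave 6.65, 7.29, 7.11, 7.70 and 7.74 CPM, on 134 to 168 counts each. All KO libraries were below all control libraries, with a gap of 1.13 CPM between the groups. The means were 10.2 ± 1.29 CPM in control and 7.30 ± 0.449 CPM in KO (SD, n = 5 each), a log2 fold change of -0.49 (SE 0.0929, Benjamini-Hochberg adjusted p = 0.0137 by edgeR's quasi-likelihood test). A 2-sided exact permutation test of the CPM values gave p = 0.00794, the smallest that 5 against 5 libraries allow. Fam20c ranked 169 by p among all genes tested.

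The spread of Fam20c between control libraries (coefficient of variation 12.6%) exceeded what counting alone gives at these depths (6.70%), whereas in KO it was 6.16% against 8.01%. In a mixed culture, fewer cells of a type and less RNA per cell cannot be told apart. The level of Adipoq, whose regulatory region drives Cre, was 1759 CPM in control and 1820 CPM in KO (log2 fold change 0.05, adjusted p = 0.743 by edgeR's quasi-likelihood test).

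Markers of other cell types differed along with Fam20c. Of 12 endothelial markers, 9 were lower in KO and none was at 0 in a library, and their summed level ranged from 170.1 to 214.1 CPM in control and from 74.2 to 111.7 CPM in KO. Cdh5, the cadherin of endothelial junctions, fell from 53.1 to 22.1 CPM. Of 12 progenitor and fibroblast markers, 5 were lower (Pdgfra, Cd34, Lum, Col1a1 and Col3a1), or 4 without control library 4 or without KO library 3. The other 7 had log2 fold changes from -0.68 (Pi16) to 0.03 (Thy1), with Ly6a (-0.06) and Dcn (-0.04) near 0. The sums were 5162 to 6662 CPM in control and 4311 to 5119 CPM in KO. Col3a1 (2630 and 1896 CPM) and Col1a1 (1406 and 1078 CPM) had the highest levels of the list and weigh most in these sums. Macrophage markers (0 of 12 called; 1488 to 2283 against 1299 to 2160 CPM) overlapped between the groups. Of the 7 pericyte and smooth muscle markers tested, 0 were called, but all 7 had a negative log2 fold change (median -0.41). In 2 of them all KO libraries lay below all control libraries, an arrangement found in 2.66% of all genes tested. The sums of this list, 105.9 to 136.3 CPM in control and 76.7 to 106.2 CPM in KO, overlapped only narrowly. Without KO library 3, the lowest, 1 of 8 markers tested was lower. The part of these cell types in the Fam20c difference was not tested. With the endothelial level of each library as a covariate, which itself separates the groups, Fam20c had a log2 fold change of -0.65 (SE 0.356) and was no longer past the limit (adjusted p = 0.396 by edgeR's quasi-likelihood test).

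**Figure D1:**
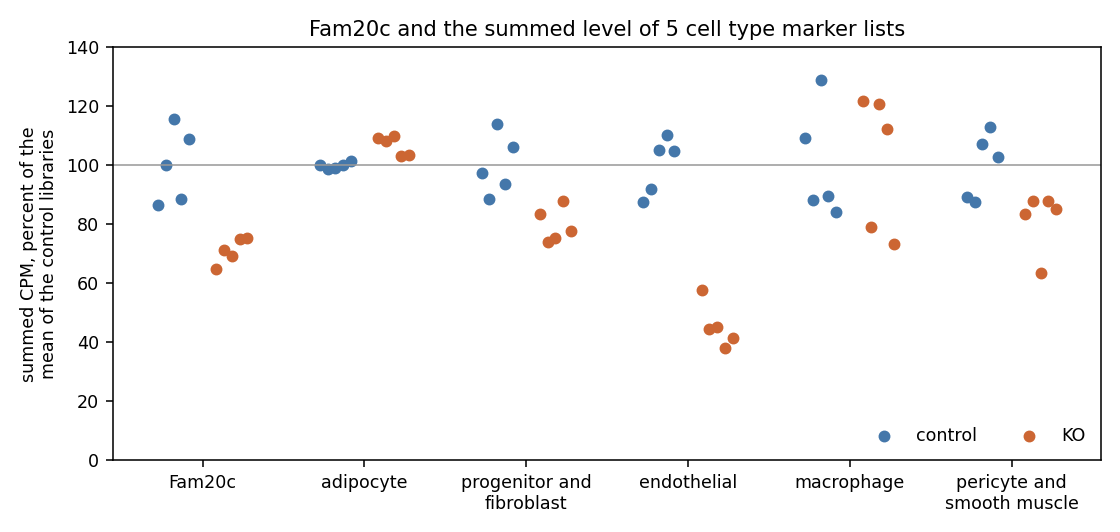
Summed CPM of 5 cell type marker lists, and CPM of Fam20c, in each of the 5 control (blue) and 5 KO (orange) libraries, as a percent of the mean of the control libraries (grey line at 100). The KO points of Fam20c and of the endothelial and the progenitor and fibroblast lists lie below all their control points. Those of the adipocyte list lie above all theirs, and those of the macrophage and the pericyte and smooth muscle lists overlap theirs.

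Neither Fam20 paralog passed the test in KO. Fam20b, the xylose kinase (chromosome 1, 156678532 to 156719086), had 72.3, 73.5, 72.0, 71.0 and 74.0 CPM in the control libraries and 74.4, 76.6, 72.6, 75.9 and 71.5 CPM in the KO libraries. The groups overlapped, although 3 KO libraries were above the highest control library. The log2 fold change was 0.03 (SE 0.0357, adjusted p = 0.829 by edgeR's quasi-likelihood test), and the exact permutation test gave p = 0.175. With 1379 to 1961 counts per library, Fam20b was the most precisely measured of the 5 genes, and the 95% interval of its KO level ran from 96.9% to 107.9% of control.

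Fam20a, the pseudokinase partner of FAM20C (chromosome 11, 109669749 to 109722279), had 7.18, 4.27, 6.91, 5.03 and 6.34 CPM in the control libraries and 5.75, 4.87, 6.37, 5.59 and 5.65 CPM in the KO libraries. All KO values lay inside the control range. The log2 fold change was -0.07 (SE 0.141, adjusted p = 0.925 by edgeR's quasi-likelihood test), and ran from -0.17 without control library 2 to 0.01 without control library 1, the lowest and the highest of the control libraries. At 104 to 150 counts per library, the 95% interval of the KO level was wide, from 77.2% to 117.9% of control. The control libraries spread by 21% (coefficient of variation), against 8.83% from counting.

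Pkdcc and Fjx1 also did not pass the test. Pkdcc (chromosome 17, 83215292 to 83225070) had 28.9, 28.4, 29.2, 25.0 and 28.5 CPM in the control libraries and 26.7, 24.0, 26.4, 24.0 and 26.2 CPM in the KO libraries. All 5 KO libraries were under the control mean, and 2 of them were under control library 4, which lay apart from the other control libraries. The log2 fold change was -0.14 (SE 0.0569), with an unadjusted p of 0.0324 and an adjusted p of 0.347 by edgeR's quasi-likelihood test, and the exact permutation test gave p = 0.0317. The KO level was 91.0% of control (95% interval 83.5% to 99.1%). Without control library 4 the log2 fold change was -0.17 and the adjusted p 0.122 by the same edgeR test.

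Fjx1 (chromosome 2, 102449366 to 102452499), a gene of 1 exon, was the lowest of the 5 in CPM. It had 4.25, 5.62, 4.84, 4.40 and 4.61 CPM in the control libraries and 3.62, 4.13, 5.59, 3.57 and 4.84 CPM in the KO libraries. KO libraries 1, 2 and 4 were below the lowest control library, while KO library 3 lay near the highest, so the groups overlapped. The log2 fold change was -0.13 (SE 0.137, adjusted p = 0.814 by edgeR's quasi-likelihood test; exact permutation p = 0.405), and the interval of the KO level was 74.4% to 112.3% of control. The value moved with single libraries, to -0.06 without control library 2, -0.07 without KO library 1 or KO library 4 and -0.24 without KO library 3. With the endothelial covariate, which itself separates the groups, it was -0.43 with an SE of 0.521. None of these passed the limit.

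**Figure D2:**
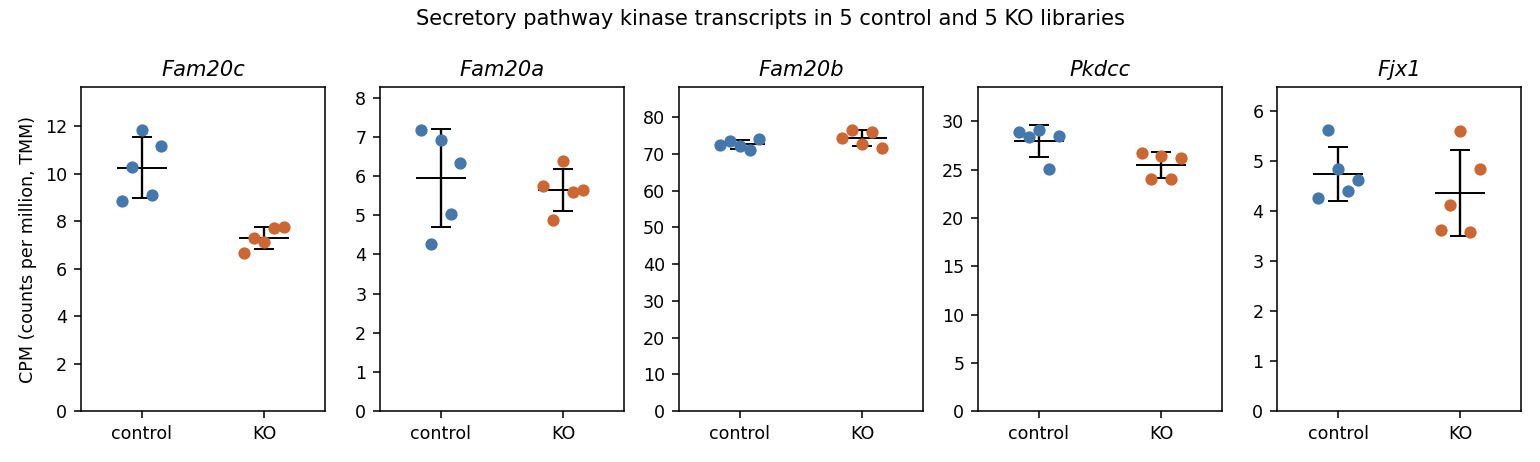
CPM of each kinase gene in the 5 control (blue) and 5 KO (orange) libraries, with the mean and SD in black and a separate axis from 0 for each gene. The groups are apart for Fam20c and overlap for Fam20a, Fam20b, Pkdcc and Fjx1.

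Of the 5 kinases, 1 was lower in KO and 0 were higher, beside 1.86% and 0.308% of all genes tested. Fam20c was also the one whose KO libraries lay entirely below the control libraries, an arrangement found in 2.66% of genes tested, while the reverse arrangement was found in 1.31% and in none of the 5. That the other 4 did not pass does not show equal levels, and the intervals above give the size of change that the libraries leave possible.

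Set against its relatives within each library, where the scaling between libraries plays no part, Fam20c was lower in KO relative to Fam20b, Pkdcc and Fam20a. The 4 ratios share the same Fam20c counts, which were themselves lower in KO. Their tests are therefore not separate from each other or from the test of Fam20c. Each 100 Fam20b counts came with 12.3 to 16.4 Fam20c counts in control and 8.93 to 10.8 in KO, with no overlap. The log2 ratio, KO minus control, was -0.51 (2-sided exact permutation test, p = 0.00794, 0.0317 after adjustment over the 4 ratios). Against Pkdcc, 30.7 to 40.6 Fam20c counts per 100 in control became 24.9 to 32.1 in KO, a difference in log2 ratio of -0.35 (exact permutation p = 0.0159, adjusted p = 0.0317). The difference against Fam20a was -0.43 (exact permutation p = 0.0317, adjusted p = 0.0423), with 123.4 to 240.4 counts per 100 in control and 111.6 to 149.6 in KO. That ratio rested on few libraries: its p was above 0.05 when any 1 of 8 libraries was left out (0.0556 to 0.0794), and under it when control library 1 or KO library 2 was left out. Against Fjx1 the difference was -0.34 and did not pass (exact permutation p = 0.0635), with 182.7 to 244.7 counts per 100 in control and 127.3 to 215.4 in KO.

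**Figure D3:**
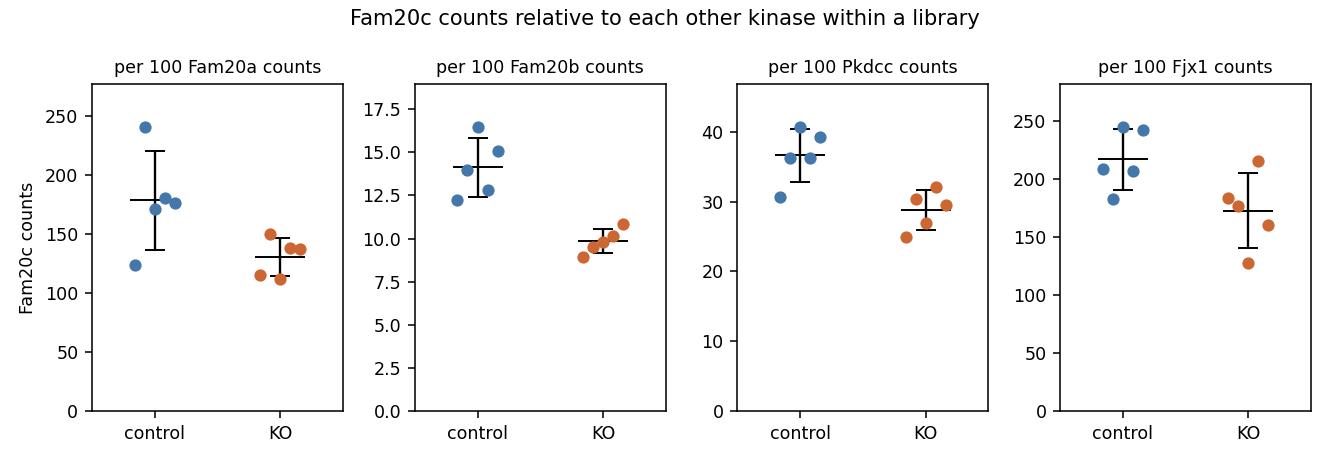
Fam20c counts per 100 counts of each other kinase in the same library, for 5 control (blue) and 5 KO (orange) libraries, with mean and SD in black and axes from 0. The groups are apart for the ratio to Fam20b and overlap for the other 3.

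Levels of different genes can be set beside each other only per length, and CPM per kb of the union of annotated exons gave the order Pkdcc, Fam20b, Fam20a, Fjx1 and Fam20c as a mean over the 10 libraries of both groups. Within the control group Fam20c ranked 4 by its mean, just above Fjx1, and within KO it ranked 5. Fam20c was nonetheless below Fjx1 in control libraries 1, 2 and 4. In CPM per kb, Pkdcc had 10.3 ± 0.618 in control and 9.39 ± 0.496 in KO, and Fam20b had 8.27 ± 0.137 and 8.46 ± 0.245 (SD, n = 5 each). The 3 others were near each other: Fam20a had 1.64 ± 0.344 and 1.55 ± 0.147, Fjx1 had 1.51 ± 0.172 and 1.39 ± 0.274, and Fam20c had 1.56 ± 0.196 and 1.11 ± 0.0682. Pkdcc exceeded Fam20b by 1.18-fold and Fam20b exceeded Fam20a by 5.30-fold, each in 10 of 10 libraries (2-sided exact sign-flip permutation test within libraries, adjusted p = 0.00391 over the 4 neighbours in the order). Fam20a and Fjx1 did not differ beyond their spread (7 of 10 libraries, exact permutation test, adjusted p = 0.236), nor did Fjx1 and Fam20c (7 of 10, adjusted p = 0.232). The neighbour tests pooled both groups, although Fam20c differed between them, and their pairs were taken from the order in the same data.

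The order depended on the length used. The annotated exons of Fam20c add up to 6590 bases over 6 transcripts, while its longest transcript has 3763 bases and its coding part 1740 bases. For Fam20b the 3 lengths were 8770, 4621 and 1230 bases. With the longest transcript, with the coding length or with CPM alone the order was Fam20b, Pkdcc, Fam20c, Fam20a and Fjx1 in both groups, which put Fam20c at rank 3. In each case Fam20b and Pkdcc stood above the other 3 genes. Fam20b exceeded Pkdcc by 1.46-fold per kb of the longest transcript, in 10 of 10 libraries (exact sign-flip permutation test, adjusted p = 0.00391). This is the reverse of their order by the union of exons, so the sign-flip tests hold only for the length used. Per kb of the longest transcript, the mean of Fam20c was 1.41 times that of Fam20a in control and 1.06 times in KO. Which transcripts these cells use is not known from gene counts.

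**Figure D4:**
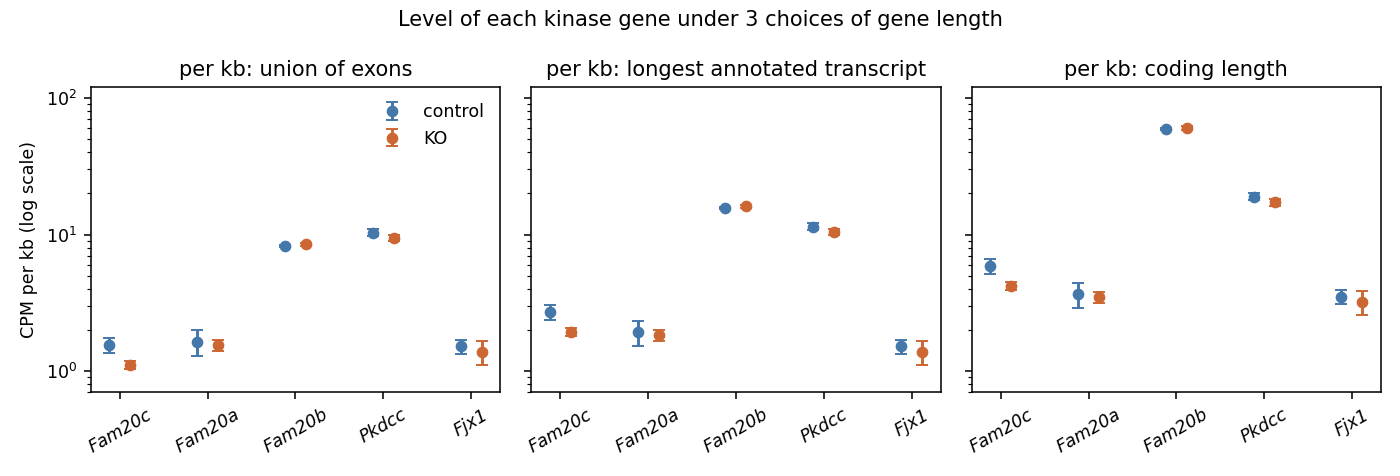
Mean level of each kinase gene in CPM per kb on a log axis, in control (blue) and KO (orange), with the SD over 5 libraries as bars, for the union of exons, the longest transcript and the coding length. Fam20b and Pkdcc lie above the other 3 genes in all 3 panels.

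Within the Fam20 family, Fam20b made up most of the transcript. Per kb of exon union, Fam20b held 72.2 ± 2.67% of the family sum in control and 76.1 ± 1.43% in KO, and Fam20a held 14.2 ± 2.60% and 14.0 ± 1.38% (SD, n = 5 each). The share of Fam20c was 13.5 ± 1.37% in control, between 11.6% and 15.1%, and 9.96 ± 0.628% in KO, between 9.11% and 10.8%, with no overlap. The family sum was 11.5 ± 0.466 CPM per kb in control and 11.1 ± 0.173 CPM per kb in KO, with overlapping ranges of 10.9 to 11.9 and 10.9 to 11.4. By coding length the mean shares in control and KO were 86.1% and 88.7% for Fam20b, 5.33% and 5.12% for Fam20a, and 8.58% and 6.17% for Fam20c. Shares add up to the whole family, so a lower share of Fam20c is by itself a higher share of the others together. These shares and sums are descriptions, with no test.

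Of the other kinases and kinase-like proteins of the secretory pathway, 0 of 5 tested genes were called in either direction, beside 2.17% of all genes tested. Their median log2 fold change was -0.04, against -0.00085 over all genes tested. Gask1b, a Golgi-associated relative of Fjx1, averaged 59.8 ± 4.24 CPM in control and 53.0 ± 3.54 CPM in KO (log2 fold change -0.17, unadjusted p = 0.0125, adjusted p = 0.220 by edgeR's quasi-likelihood test). Dipk2a, a kinase-like protein of the family once called FAM69 and DIA1, had 44.9 ± 4.58 and 43.6 ± 1.86 CPM. Pomk, the glycan kinase of dystroglycan, had 16.3 and 16.6 CPM (log2 fold change 0.03), Dipk1a had a log2 fold change of -0.04 and Dipk1b of 0.13. The summed level of the list in KO was 94.6% of that in control, and 97.7% without control library 4. Gask1a, Dipk1c and Dipk2b had at most 15, 5 and 12 counts in a library and were too low to be tested.

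**Figure D5:**
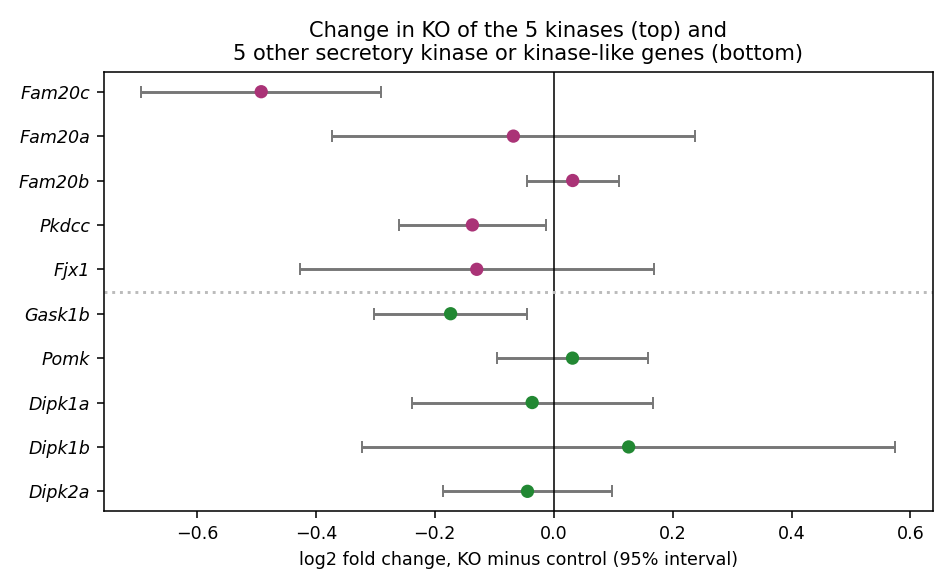
Log2 fold change of KO minus control with its 95% interval for the 5 kinases (purple, top) and for the 5 tested genes among other secretory kinases and kinase-like proteins (green, bottom), with a line at 0. The intervals of Fam20c, Pkdcc and Gask1b lie below 0, and of these genes Fam20c passed the adjusted limit.

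Genes in the pathways of the 5 kinases were taken from lists written by function. Over 6 lists, the other kinases included, 41 genes were tested and 0 were called by edgeR, beside 2.17% of all genes tested. With so small a share, lists of this size can hold no called gene. Of the 41, 6 (14.6%) had an unadjusted p under 0.05, all lower in KO, against 11.9% of all genes tested. DESeq2 called 3 of the 41 lower (Col4a2, Dchs1 and Fat4), and limma voom called 3 lower, Col4a2 and Dchs1 among them. Leaving out KO library 1 or KO library 5 gave 1 call by edgeR, Dchs1 and Col4a2 respectively. The log2 fold change was within 0.25 of 0 for 39 of the 41 genes, with a median of -0.03.

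Of the enzymes of the proteoglycan linker, where FAM20B acts, 0 of 11 were called, beside 2.17% of all genes tested, and the median was -0.03. Extl3, which adds the first N-acetylglucosamine of heparan sulfate, averaged 242.6 ± 6.77 CPM in control and 242.0 ± 11.1 CPM in KO. Ext1, a heparan sulfate polymerase, had 81.3 ± 3.34 and 80.0 ± 3.20 CPM. The lowest fold change was that of Csgalnact1, an initiating enzyme of chondroitin sulfate, at -0.24 (unadjusted p = 0.0426, adjusted p = 0.393 by edgeR).

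The Fat and Dachsous cadherins, partners of Four-jointed in the fly, were listed together with the Lix proteins. This list had the largest differences of the pathway lists, with 4 of 8 genes tested and a median of -0.43. Of these 4, 0 were called, beside 2.17% of all genes tested. The 4 genes were the cadherins Fat1, Fat4 and Dchs1 and the Lix protein gene Lix1l. Lix1l averaged 52.9 ± 2.38 CPM in control and 51.4 ± 1.92 CPM in KO, and Fat1 had 45.2 ± 6.99 and 39.0 ± 11.1 CPM. Dchs1 had 2.37 ± 0.376 and 1.12 ± 0.676 CPM (log2 fold change -1.09, adjusted p = 0.0951 by edgeR), and Fat4 had 5.17 ± 0.944 and 3.29 ± 0.714 CPM (log2 fold change -0.65, adjusted p = 0.0728 by edgeR). Both are low in these cells, with 12 to 63 counts per library for Dchs1 and 51 to 154 for Fat4. Both genes, and Csgalnact1, were named after their values were seen.

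Of 10 genes of dystroglycan O-mannosylation, the pathway of POMK, 0 were called, beside 2.17% of all genes tested, and the median was 0.03. Dag1, which encodes dystroglycan, averaged 478.9 ± 45.7 CPM in control and 503.8 ± 25.7 CPM in KO, and Pomgnt1 had 78.7 ± 5.15 and 78.4 ± 3.86 CPM.

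Genes that process FAM20C or supply the Golgi were also near 0, with a median of -0.02. Of these 6, 0 were called, beside 2.17% of all genes tested. Nucb1, a calcium-binding Golgi protein, averaged 257.3 ± 17.2 CPM in control and 253.0 ± 14.4 CPM in KO, and Sdf4 had 229.7 ± 7.16 and 233.0 ± 8.74 CPM. The summed level of the list in KO was 99.1% of that in control, and 97.3% without control library 4.

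Of 6 genes whose proteins the study names as FAM20C substrates, 5 were tested, with a median of -0.04. Of these 5, 0 were called, beside 2.17% of all genes tested. Fgf23 had at most 12 counts in a library. Pnpla2, the adipose triglyceride lipase, averaged 2618 ± 149 CPM in control and 2802 ± 163 CPM in KO (log2 fold change 0.10, adjusted p = 0.539 by edgeR). Col4a2, a chain of basement membrane collagen, had 1369 ± 36.3 and 1207 ± 61.0 CPM, and its groups did not overlap. Its log2 fold change was -0.18, and its adjusted p of 0.0527 by edgeR was the smallest of the 41 genes, just above the limit.

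Across the 10 libraries, the genes whose level followed that of Fam20c most closely were Fscn1, Hmgn3, Maged2, Cx3cl1 and Paqr7. Likeness was the root-mean-square difference between log2 CPM values, each taken less its gene's own mean, over 12906 genes whose mean log2 CPM was not under 0. It was 0.0809 for Fscn1, 0.0870 for Hmgn3, 0.0948 for Maged2, 0.0952 for Cx3cl1 and 0.0975 for Paqr7, against a median of 0.301. Fscn1, the actin-bundling protein fascin, averaged 57.9 CPM in control and 39.3 CPM in KO, and Cx3cl1, the chemokine fractalkine, had 5.24 and 3.89 CPM. A gene that is lower in KO by a like amount scores well here, so these levels are a description of the choice. Of the kinases, Pkdcc was nearest to Fam20c at 0.217 (rank 645), followed by Fjx1 at 0.267 (rank 3142), Fam20b at 0.284 (rank 4721) and Fam20a at 0.321 (rank 8260).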

How the data were processed

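The authors prepared libraries with SMARTer and Nextera XT chemistry, sequenced paired ends, aligned them with STAR to GRCm38 and counted fragments per gene with featureCounts. The deposited counts are whole numbers per gene, neither normalized nor filtered, in 5 control and 5 KO columns, and the strand setting is not stated. The methods also state the authors' own test, DESeq2.

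From these counts, edgeR 4.0.16 (R 4.3.3) kept genes that passed filterByExpr (minimum count 10), scaled them by TMM and tested KO against control by its quasi-likelihood test with Benjamini-Hochberg adjustment over all 14270 genes tested (limit 0.05). Log2 CPM used a prior count of 2. Single values, within-library ratios and neighbours in the order of levels were tested by exact permutation in Python 3.11.15. Replicates of a group differed beyond sampling noise (smallest chi-square per degree of freedom 3.29).

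Gene models came from GENCODE M21, which matched 52125 of 56748 identifiers when the version was ignored, but 35 with it, so the counting used another release. Coding sequences were aligned with mafft 7.526. The scripts were tested on simulated data.

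Genes named were the 5 kinases, list genes past the limit or otherwise the 2 of each list with the highest mean CPM, and the 5 genes most like Fam20c. The other kinases tested, the marker genes and the other list genes with an unadjusted p under 0.05 were named outside this rule, after their values were seen. The kinases and the lists were chosen with earlier results of these data known. Alternatives were DESeq2 1.42.0, limma 3.58.1 voom, other scaling factors and filters, a replicate block, an endothelial covariate, other gene lengths and each library left out in turn. The values of 1 gene of the lists are not reported here.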

Additional observations from a re-analysis of the deposited data

Results flagged for a closer look

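Dixon's ratio was used to find a library that lies apart from the other 4 of its group. It exceeded the 95% critical value in 4 of 44 groups, where chance gives 2.20. Pkdcc had 25.0 CPM in control library 4 and 28.4 to 29.2 CPM in the other control libraries. The summed level of the other secretory kinases and kinase-like proteins was 157.0 CPM in control library 4 and 133.4 to 135.7 CPM in the others. The summed level of the genes that process FAM20C or supply the Golgi was 754.7 CPM in control library 4 and 822.1 to 833.0 CPM in the others. The summed pericyte and smooth muscle markers had 76.7 CPM in KO library 3 and 100.9 to 106.2 CPM in the other KO libraries.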

How the results depend on the processing

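Fam20c stayed lower in KO in all 18 alternatives and past the limit in 17 of them. Without any 1 library its log2 fold change was -0.54 to -0.43 (adjusted p 0.00778 to 0.0476 by edgeR), and with the endothelial covariate it was -0.65 (adjusted p = 0.396). Fam20a turned positive with that covariate (0.033, SE 0.529), and its log2 fold change without any 1 library was -0.17 to 0.0066, positive without control library 1. Fam20b turned negative with the covariate (-0.0063, SE 0.131). Both values are small beside their SE. None of Fam20a, Fam20b, Pkdcc and Fjx1 passed the limit in any alternative.

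Over all genes, 125 were higher in KO by DESeq2, 111 by limma voom, 21 with the replicate block and 191 with the endothelial covariate, with which 65 were lower. Without any 1 library, 164 to 323 were lower and 19 to 119 higher.

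Same-numbered libraries deviated together in part only (correlations of -0.25 to 0.26, with 1 of 5 closest to its own number), and no source pairs them. With the replicate block, 193 genes were lower and Fam20c had a log2 fold change of -0.49 (adjusted p = 0.0355 by edgeR). In that pairing the exact p was 0.0625, the smallest that 5 pairs allow, for the ratios of Fam20c to Fam20a (-0.43), Fam20b (-0.51) and Pkdcc (-0.35). Without any 1 library, the ratio to Fam20a was -0.56 to -0.31 and that to Fjx1 -0.43 to -0.24, which passed without control library 2 or KO library 4.

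The KO difference in the Fam20c share was -2.41 points by coding length. In the order of levels, Fam20c had rank 3 with the longest transcript, the coding length or CPM alone, against rank 5 by the union of exons. Of the pathway genes, an alternative chosen after seeing the data, 3 were called by DESeq2, 3 by limma voom, 2 with no filter on low counts, and 1 each with upper-quartile factors, a filter of 50 counts in 5 libraries and the replicate block. Leaving out a library gave 0 to 1. At 73 to 274 counts per library, counting error alone gave Fam20a, Fam20c and Fjx1 a coefficient of variation of 6.70% to 10.5%, and the spread between control libraries exceeded it for all 3.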
